A study of Mus musculus with 36 samples.

Results

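The insulin-like growth factor (IGF) system was followed through 10 genes, taken by their symbols, out of the 22558 genes in each of the deposited expression tables. They are the ligand genes Igf1 and Igf2, the receptor gene Igf1r, the binding protein genes Igfbp1, Igfbp2, Igfbp3, Igfbp4, Igfbp5 and Igfbp7, and Igfals, which encodes the acid-labile subunit. All 10 symbols were found in both tables. Mice of the strain C57BL/6 had received PBS as the control, DMOG (dimethyloxalylglycine, a broad inhibitor of 2-oxoglutarate-dependent dioxygenases) or roxadustat (written Roxadust in some labels, a clinical inhibitor of the HIF prolyl hydroxylases). Total RNA was sequenced from samples labelled liver and retina, with 6 libraries in each of the 6 groups and 36 in all. The series asks about hypoxia-inducible factor (HIF) stabilization and retinopathy of prematurity. No genotype beyond the strain, and no age, dose, time, oxygen exposure or number of animals, is given in the labels, so it is unknown whether the doses were matched. The p-values below rest on variation among libraries, which may be technical.

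IGF1 and IGF2 are growth factors that act through the IGF1 receptor, and most circulating IGF1 comes from hepatocytes under the control of growth hormone. In blood, IGF is held in a complex with IGFBP3 or IGFBP5 and the acid-labile subunit, which prolongs its life, while IGFBP1 and IGFBP2 form smaller complexes that can leave the vessels. IGFBP1 is known as a hepatic gene that is held down by insulin and raised by fasting and hypoxia, and a shortage of IGF1 in preterm infants is a known companion of poor retinal vessel growth.

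The tissue labels and the transcriptomes were crossed. Summed over 8 hepatocyte markers, libraries labelled retina held 22399 to 37644 FPKM (fragments counted per kilobase of transcript, scaled to the size of the library), with rod photoreceptor markers at 1.05 to 2.6 FPKM in sum. Libraries labelled liver held 6229 to 11673 FPKM of rod markers and 26.3 to 173 FPKM of the 8 hepatocyte markers in sum. Of these, Ttr was at 26.2 to 173 FPKM, and 2, Serpina1a and Fgb, were at 0 in every library. Each group is therefore named by its label with the transcriptome beside it. In the libraries labelled retina (liver transcriptome), the library labelled DMOG replicate 5 had Epo, the erythropoietin gene, listed at 0 and Egln3, a HIF target, at 8.23 FPKM, within reach of the PBS range of 5.19 to 8.29 FPKM. Results that rest on it are given with and without it.

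The regulatory sequence just before Igfbp1 and Igfbp3 is shown because these genes are neighbours in the genome, stand on opposite strands and moved in opposite directions in the liver transcriptome with roxadustat. The windows hold the 250 bases before each annotated start in RefSeq (build GRCm38.p6), at chr11:7197537-7197786 on the plus strand for Igfbp1 and chr11:7213924-7214173 on the minus strand for Igfbp3. Capitals mark GCGTG, a core form of the sequence that HIF binds, on either strand (CACGC where it lies on the opposite strand), and CAAAACA, a form of the insulin response element that FOXO factors bind.
Igfbp1: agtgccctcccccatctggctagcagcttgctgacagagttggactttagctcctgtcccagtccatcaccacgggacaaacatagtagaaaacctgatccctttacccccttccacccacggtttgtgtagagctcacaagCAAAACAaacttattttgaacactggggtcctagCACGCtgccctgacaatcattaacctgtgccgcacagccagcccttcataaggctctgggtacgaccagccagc
Igfbp3: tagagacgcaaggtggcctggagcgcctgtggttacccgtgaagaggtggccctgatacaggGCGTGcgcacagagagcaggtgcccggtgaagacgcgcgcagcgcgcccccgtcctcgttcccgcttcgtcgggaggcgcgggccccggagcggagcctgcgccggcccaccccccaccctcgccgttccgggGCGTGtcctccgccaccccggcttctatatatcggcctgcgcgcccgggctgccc
With position -1 directly before the start, the Igfbp1 window held the FOXO element at -108 to -102 and the HIF core on the opposite strand at -74 to -70. The Igfbp3 window held the HIF core at -188 to -184 and at -55 to -51, and the FOXO element was not found in it. Over 32851 promoter windows of the same length, searched on both strands, the shares with a match were 28.2% for GCGTG and 16.6% for ACGTG, the other form of the HIF core. At least one form was found in 38.6% of windows, where matches on opposite strands can overlap, and 5.56% held the FOXO element. All 10 genes had a promoter entry, and 7 of their 16 windows held a form of the HIF core. The FOXO element was found for Igfbp1 and for none of the others, and the 3 Igfals windows held no match to these letters. The expression tables were made on another build (mm9), so these positions locate the sequence and not the reads.

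In the untreated liver transcriptome the binding protein and ligand transcripts spanned a wide range. With PBS, mean levels in the libraries labelled retina ran from Igfbp2 (2825 FPKM) through Igf2 (1070 FPKM), Igfbp4 (554 FPKM), Igfbp1 (466 FPKM), Igfbp7 (114 FPKM), Igf1 (87.0 FPKM), Igfals (69.4 FPKM), Igfbp3 (34.9 FPKM) and Igfbp5 (4.61 FPKM) to Igf1r (1.74 FPKM). Neighbours in this order whose libraries overlapped were Igfbp4 with Igfbp1, Igfbp7 with Igf1, and Igf1 with Igfals. FPKM is scaled to transcript length, so these levels can be set side by side. Igf2, a growth factor of fetal and neonatal life, thus stood above Igf1 in every PBS library, at 851 to 1207 FPKM against 78.2 to 104 FPKM. The receptor gene was the lowest of the 10 in this transcriptome.

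**Figure D1:**
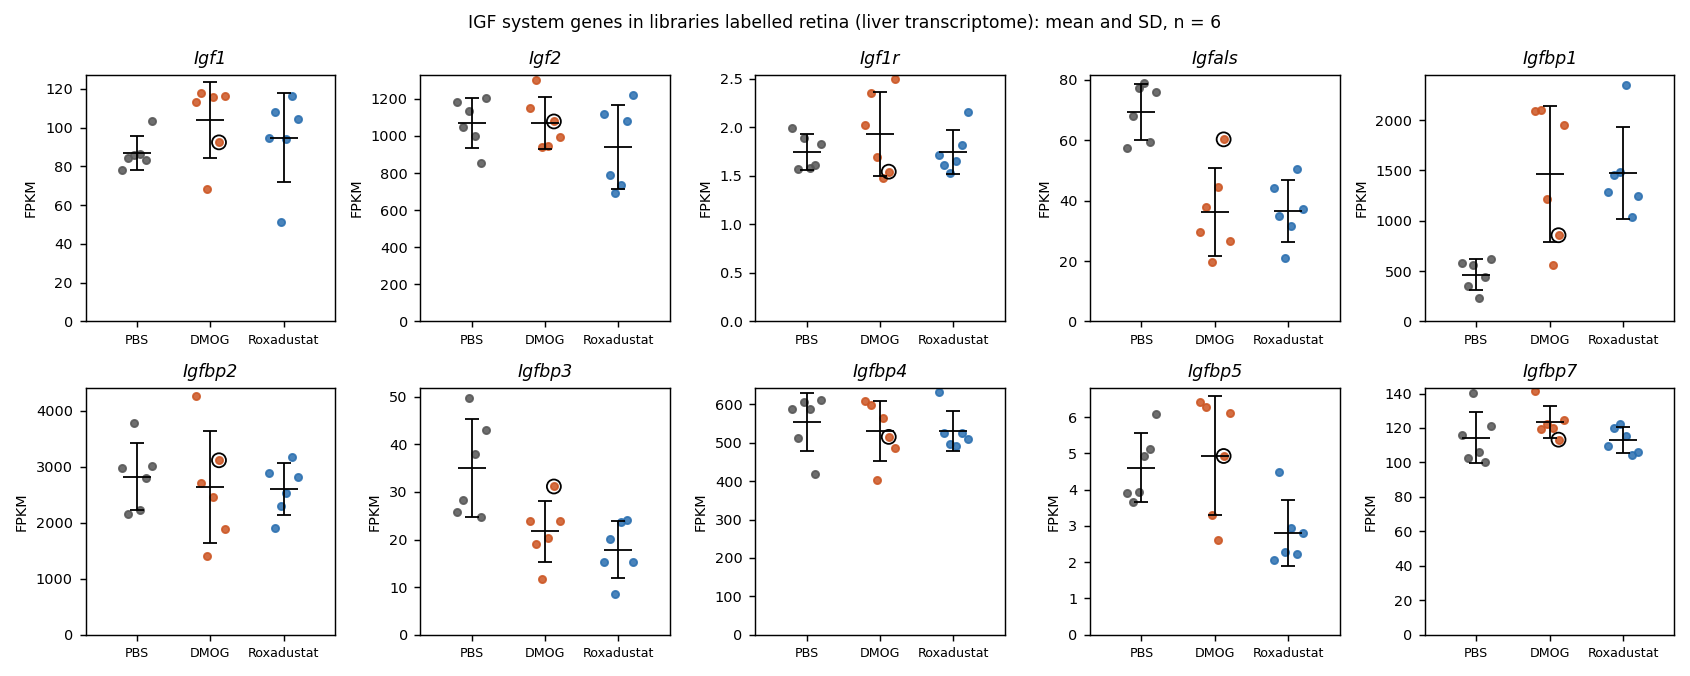
Levels of the 10 genes (FPKM, linear axes from 0) in the 6 libraries of each treatment labelled retina, which carry a liver transcriptome. Points are libraries, black lines the mean and SD, and the ring marks DMOG replicate 5. The mean of Igfbp1 is raised in both treated groups and that of Igfals is lowered, though for both genes the DMOG and PBS libraries overlap. Igf1, Igf2, Igfbp2 and Igfbp4 overlap between all groups.

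With DMOG, the liver transcriptome carried about 3 times as much Igfbp1 transcript and roughly a halving of Igfals, while both ligands and the receptor were not called. Of the 10 genes, 1 was called higher and 1 lower, against a background of 20.0% of 12657 genes called (8.26% higher and 11.7% lower). That background holds 2526 genes, of which 41.4% were higher, or 17.8% of 3274 when each library was rescaled to an equal total, and without DMOG replicate 5 it was 4486 genes. Of the 10 genes, 3 had an unadjusted p under 0.05, against 4360 of the 12657 genes tested. The share of called genes among the 10 was thus at the background.

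Igfbp1, the binding protein that insulin represses, had a lowest, median and highest level of 237, 505 and 620 FPKM with PBS. With DMOG the levels were 561, 1584 and 2103 FPKM. All DMOG libraries lay above the PBS mean and 5 of 6 lay above the highest PBS library, the exception being replicate 4 at 561 FPKM. The mean rose from 466 ± 151 to 1463 ± 675 FPKM (SD, n = 6 each), a log2 fold change of 1.56 ± 0.32 (SE, limma adjusted p = 0.00271) on the log2(FPKM + 0.5) scale. In these bulk samples, fewer cells of a type and less RNA per cell cannot be told apart. Without DMOG replicate 5 the log2 fold change was 1.69 ± 0.32 (limma adjusted p = 0.000651).

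Igfals, which encodes the subunit that completes the large IGF complex, went the other way. Its lowest, median and highest levels were 57.5, 71.8 and 78.7 FPKM with PBS and 19.6, 33.7 and 60.2 FPKM with DMOG. Every DMOG library lay below the PBS mean, and 5 of 6 lay below the lowest PBS library, with replicate 5 at 60.2 FPKM inside the PBS range. The mean fell from 69.4 ± 9.32 to 36.4 ± 14.6 FPKM (SD, n = 6), a log2 fold change of -1.0 ± 0.23 (limma adjusted p = 0.00509). It was -1.17 ± 0.20 without replicate 5 (limma adjusted p = 0.00028).

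Igfbp3, the main circulating carrier of IGF, had a lowest, median and highest level of 24.7, 33.1 and 49.8 FPKM with PBS and 11.7, 22.2 and 31.2 FPKM with DMOG. The groups overlapped through DMOG replicate 5, the highest DMOG library, and 5 of 6 lay below the lowest PBS library. Its log2 fold change of -0.68 ± 0.25 was not called (limma adjusted p = 0.0629). It was called lower without DMOG replicate 5 (-0.79 ± 0.25, limma adjusted p = 0.0207), without PBS replicate 5 (-0.77 ± 0.26, 0.0472), without roxadustat replicate 3 (-0.68 ± 0.22, 0.0345) and with an equal total per library (-0.77 ± 0.23, 0.0197).

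The 2 DMOG libraries that stood apart did so for different genes. DMOG replicate 5, with Egln3 at 8.23 FPKM, had Igfals at 60.2 FPKM and Igfbp3 at 31.2 FPKM, both within the PBS ranges. Its Igfbp1, at 856 FPKM, was above every PBS library. It was below the other DMOG libraries except replicate 4, and below every roxadustat library (1040 FPKM or more). DMOG replicate 4 had the highest Egln3 of the 18 libraries, at 72.5 FPKM, with Epo at 21.1 FPKM, and the lowest Igfbp1 of the DMOG group. Within the DMOG group, Igfbp1 therefore did not follow the order of Egln3, and replicate 4 was not the only departure. Replicate 2 had the highest Igfbp1 of the group (2103 FPKM) with Egln3 at 46.4 FPKM. In replicate 3, Igfbp1 was at 1218 FPKM with Egln3 at 48.8 FPKM.

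**Figure D2:**
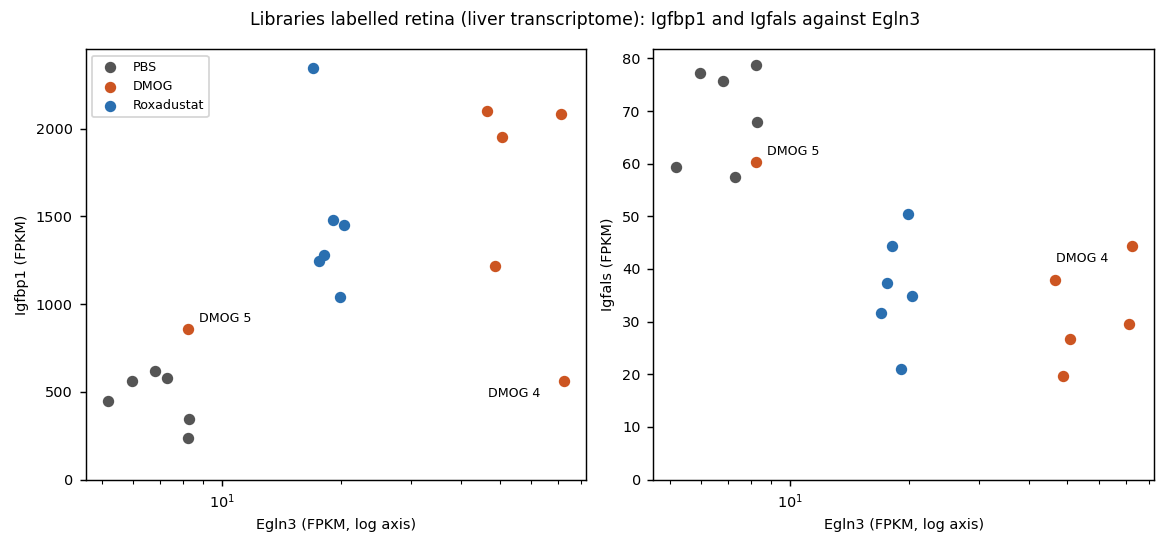
Igfbp1 (left) and Igfals (right) in FPKM on linear axes against Egln3 in FPKM on a log axis, for the 18 libraries labelled retina (liver transcriptome). Each point is a library, coloured by treatment. DMOG 5 lies at the PBS level of Egln3 (8.23 FPKM) with Igfbp1 at 856 FPKM, and DMOG 4 has the highest Egln3 (72.5 FPKM) with Igfbp1 at 561 FPKM.

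The ligands and the receptor did not pass the test with DMOG in these libraries. Igf1 had a lowest, median and highest level of 78.2, 85.1 and 104 FPKM with PBS and 68.4, 115 and 118 FPKM with DMOG. The groups overlapped, with 4 of 6 DMOG libraries above and 1 below the PBS range, and the log2 fold change was 0.24 ± 0.17 (95% interval -0.12 to 0.59). Igf2 was at 1070 ± 133 FPKM with PBS and 1069 ± 139 FPKM with DMOG (SD), a log2 fold change of -0.00 with an interval of -0.30 to 0.30. Igf1r, the receptor gene, was at 1.74 ± 0.18 and 1.93 ± 0.43 FPKM. Of the binding proteins, Igfbp2, the most abundant, was at 2825 ± 593 and 2643 ± 997 FPKM, and Igfbp4, Igfbp5 and Igfbp7 had log2 fold changes of -0.07, 0.04 and 0.12. None of these 4 was called.

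With roxadustat, compared with the same 6 PBS libraries, Igfbp1 was again about 3 times as high in the liver transcriptome, and Igfals and Igfbp3 were both lower. Of the 10 genes, 1 was called higher and 2 lower, against a background of 4.19% of 12657 genes (2.16% higher and 2.02% lower). At an unadjusted p under 0.05 there were 4 of the 10, against 2394 of the 12657 genes. The 530 genes called were 51.7% higher, or 31.4% of 759 with an equal total per library, and numbered 1107 without DMOG replicate 5, whose spread the fit shares. For 3 of the 10 genes the roxadustat and PBS libraries did not overlap, against 5.48% of all genes tested (with DMOG, 0 of the 10 against 2.77%). Inferred from Xist and Y-linked genes, the PBS libraries were 3 female and 3 male, those of DMOG 4 and 2, and those of roxadustat 1 and 5. With sex as a covariate, the same 3 genes were called along with Igfbp5.

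For Igfbp1, the roxadustat libraries had a lowest, median and highest level of 1040, 1365 and 2346 FPKM. All 6 lay above the highest PBS library (620 FPKM). The mean rose to 1474 ± 456 FPKM (SD, n = 6), a log2 fold change of 1.69 ± 0.32 (limma adjusted p = 0.0042). Over all alternatives and each library left out, the adjusted p stayed at or below 0.0137 with roxadustat and 0.0129 with DMOG.

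Igfals had a lowest, median and highest level of 21.1, 36.1 and 50.4 FPKM with roxadustat, all below the lowest PBS library (57.5 FPKM). The mean of 36.6 ± 10.2 FPKM gave a log2 fold change of -0.95 ± 0.23 (limma adjusted p = 0.0213). The call was lost at the margin without PBS replicate 3, without PBS replicate 4 and without roxadustat replicate 3 (limma adjusted p = 0.0509, 0.0509 and 0.0516).

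Igfbp3 had a lowest, median and highest level of 8.66, 17.7 and 24.1 FPKM with roxadustat, all below the lowest PBS library (24.7 FPKM) by a narrow gap. Its mean fell from 34.9 ± 10.3 to 17.9 ± 5.94 FPKM (SD, n = 6), a log2 fold change of -0.97 ± 0.25 (limma adjusted p = 0.033). This call was lost without PBS replicate 3, 4 or 6 or roxadustat replicate 1, 3 or 6 (limma adjusted p = 0.0607 to 0.0835), with no filter (0.0511) and with the replicate number as a block (0.0517). Summed markers of stellate and stromal cells were at 236 to 307 FPKM with PBS and 208 to 258 FPKM with roxadustat, and those of endothelium at 106 to 127 and 115 to 134 FPKM (8 of 8 markers of each list at a mean of at least 1 FPKM, none at 0). Their part in the result was not tested.

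Igfbp5, which can also form the large complex, had a lowest, median and highest level of 3.67, 4.43 and 6.10 FPKM with PBS, and 2.07, 2.54 and 4.50 FPKM with roxadustat. Of the roxadustat libraries, 5 of 6 lay below the PBS range and replicate 2 lay inside it. The log2 fold change of -0.65 ± 0.20 was not called (limma adjusted p = 0.0768). It was called without roxadustat replicate 2 (-0.77 ± 0.19, limma adjusted p = 0.0372), without DMOG replicate 4 (-0.65 ± 0.17, 0.043), with an equal total (0.0423), with only the compared groups in the fit (0.0206) and with sex as a covariate (0.0214).

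Igf1 and Igf2 were not called with roxadustat. Igf1 was at 51.1, 99.6 and 116 FPKM (lowest, median and highest), a log2 fold change of 0.08 ± 0.17. Of its roxadustat libraries, 3 of 6 lay above the PBS range and replicate 3 alone lay below it. Igf2 was at 691, 935 and 1220 FPKM, with 3 of 6 libraries below the PBS range and 1 above it, and a log2 fold change of -0.21 ± 0.14 (95% interval -0.51 to 0.08). Igfbp2, Igfbp4, Igfbp7 and Igf1r had log2 fold changes of -0.11, -0.06, -0.01 and -0.00, and none was called.

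**Figure D3:**
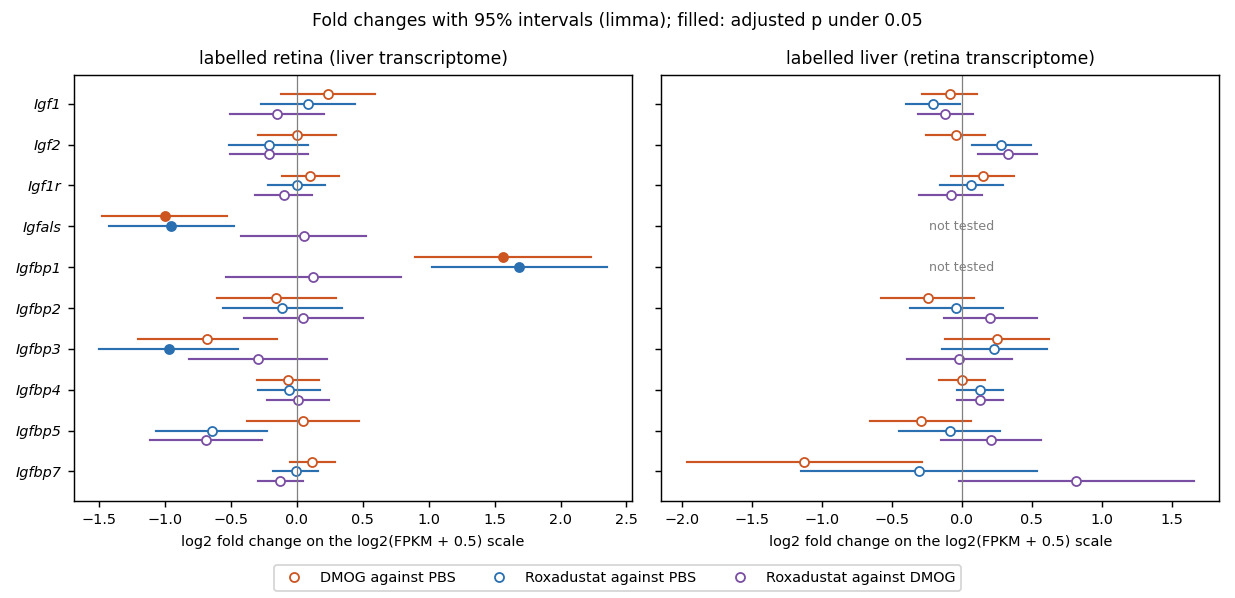
Log2 fold changes of the 10 genes on the log2(FPKM + 0.5) scale with 95% intervals, for 3 comparisons in each tissue label. Filled points have an adjusted p under 0.05 in limma, open points do not, and genes below the level filter are written as not tested. The filled points are Igfbp1 and Igfals for both compounds and Igfbp3 for roxadustat, all in the libraries labelled retina.

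The compounds were set against each other directly in the same libraries, and none of the 10 genes was called, against a background of 2.99% of 12657 genes (1.86% higher and 1.14% lower with roxadustat). The 379 genes called were 62.0% higher, or 82.6% of 558 with an equal total. For Igfbp1 the difference was 0.12 ± 0.32 on the log2 scale (95% interval -0.54 to 0.79) and for Igfals 0.05 ± 0.23 (-0.42 to 0.53). These intervals do not show that the compounds act alike. Of the 10, Igfbp5 alone had an unadjusted p under 0.05 (2267 of the 12657 genes did), at -0.69 ± 0.20 (limma adjusted p = 0.0686). It was called lower with roxadustat than with DMOG without DMOG replicate 4 (-0.84 ± 0.18, limma adjusted p = 0.0353), without DMOG replicate 5 (-0.68 ± 0.22, 0.0387), without roxadustat replicate 2 (-0.82 ± 0.19, 0.0416) and with sex as a covariate (-0.89 ± 0.20, 0.0472).

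The make-up of the binding protein transcripts shifted with both compounds. Over the summed FPKM of the 6 Igfbp genes, Igfbp1 made up 11.5% ± 2.37 with PBS (SD, n = 6; range 7.40% to 14.0%). It made up 30.4% ± 11.6 with DMOG (15% to 43.5%) and 31.0% ± 7.80 with roxadustat (21.3% to 42.5%), so that the treated libraries all lay above the PBS range. The share of Igfbp2 was 70.5% ± 2.49, 54.8% ± 11.0 and 54.9% ± 7.64 in the same order, while the level of Igfbp2 itself was not called. The sum of the 6 was 3999 ± 767 FPKM with PBS, 4785 ± 1409 with DMOG and 4744 ± 507 with roxadustat.

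**Figure D4:**
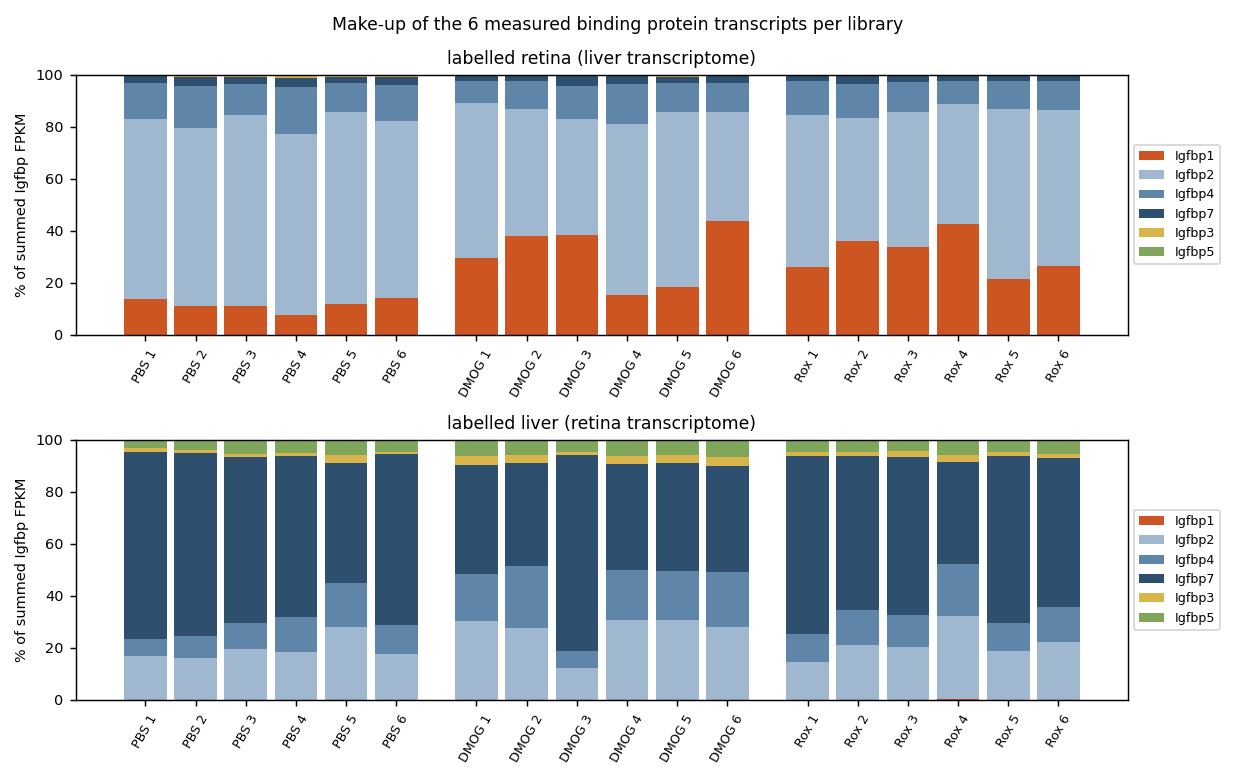
Share of each binding protein gene (percent of the summed FPKM of 6 Igfbp genes) in each of the 36 libraries, by label, treatment and replicate. In the libraries labelled retina (liver transcriptome) the Igfbp1 part is at most 14.0% with PBS and at least 15% with DMOG or roxadustat. In those labelled liver (retina transcriptome) Igfbp7 is the largest part on average in each treatment.

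By the correlation of log2 levels over the 18 libraries labelled retina, the genes whose pattern was most like that of Igfbp1 were Eif4ebp1 (Pearson r 0.89), which encodes a translation repressor, Ccng2 (0.88), a cyclin gene, Peg3 (0.88), an imprinted gene, Btg1 (0.87), an antiproliferative gene, and Pafah1b3 (0.87). The points share 3 treatments and are given as a description. Eif4ebp1 went from 23.4 FPKM with PBS to 36.3 with DMOG and 35.2 with roxadustat, and Ccng2 from 6.19 to 11.4 and 10.5 FPKM.

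The rest of the pathway in the liver transcriptome was read from lists that were put together with earlier results of these data known. Of 28 genes of insulin and IGF1 receptor signalling, 26 were tested with DMOG, and 4 were higher and 3 lower (median log2 fold change 0.02, against 0.01 over all genes). Set against the 20.0% of all genes called with DMOG, 7 of 26 is near the background, and the list counts with DMOG that follow are read against the same share (4.19% with roxadustat). Irs2, a docking protein of the receptors, rose from 13.2 ± 3.12 to 34.4 ± 11.1 FPKM (log2 fold change 1.31 ± 0.19, limma adjusted p = 0.000792), and Irs1, its relative, fell from 10.5 ± 0.98 to 6.37 ± 1.69 FPKM (-0.71 ± 0.12). Tsc1, an inhibitor of mTOR signalling, fell by 0.29 ± 0.06 and Eif4ebp1 rose by 0.62 ± 0.15 on the log2 scale. With roxadustat, 1 of the 26 was higher, Eif4ebp1 (0.60 ± 0.15), and 2 were lower, Irs1 (-0.71 ± 0.12, limma adjusted p = 0.00238) and Tsc1 (-0.24 ± 0.06), with a list median of 0.03 against -0.00. The roxadustat calls were lost for Eif4ebp1 without PBS replicate 2, 4 or 5 or roxadustat replicate 1, 2, 3 or 4 (limma adjusted p = 0.0509 to 0.0626) and for Tsc1 without PBS replicate 3 or 6 (0.058 and 0.0631). Between the compounds 1 of the 26 was called, Irs2, higher with DMOG than with roxadustat (roxadustat minus DMOG -0.79 ± 0.19, limma adjusted p = 0.03), against 2.99% of all genes. This call was lost without DMOG replicate 1, 2, 3 or 6 or roxadustat replicate 1, 2, 3, 5 or 6 (limma adjusted p = 0.0515 to 0.082), with no filter (0.0509), with only the groups compared (0.0907) and with sex as a covariate (0.109).

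Of 13 genes of the growth hormone axis, which drives Igf1 and Igfals in liver, 12 were tested, and 2 were higher and none lower with DMOG (median log2 fold change 0.30), a share no larger than the 20.0% over all genes. These were Socs3, a feedback inhibitor of cytokine receptors (1.02 ± 0.23, limma adjusted p = 0.00546), and Prlr, the prolactin receptor gene (0.66 ± 0.14). With roxadustat 1 was higher, Stat5a, a transcription factor of this axis (0.36 ± 0.07, limma adjusted p = 0.00799; median -0.00). Ghr, the growth hormone receptor gene, was at 99.6 ± 13.9 FPKM with PBS, 75.8 ± 16.2 with DMOG and 89.1 ± 19.1 with roxadustat and was not called. Between the compounds, 1 of the 12 was higher with roxadustat and 2 were lower, against 2.99% of all genes called. Stat5a was higher (0.49 ± 0.07), and Prlr (-0.67 ± 0.14) and Socs2, another feedback inhibitor, (-0.63 ± 0.15) were lower. The call of Prlr was lost without DMOG replicate 1, 4 or 6 (limma adjusted p = 0.0506 to 0.0593), with only the groups compared (0.0831) and with sex as a covariate (0.0523). That of Socs2 was lost without DMOG replicate 1, 2, 4 or 6 or roxadustat replicate 1, 2, 3, 5 or 6 (0.0554 to 0.0939), with no filter (0.0571), with only the groups compared (0.101) and with sex as a covariate (0.0945).

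Of 12 proteases that cleave binding proteins, and their inhibitors, 6 were tested, and 3 were higher and none lower with DMOG. Stc1 and Stc2, which encode stanniocalcins and inhibit the protease PAPP-A, were at 0.31 ± 0.05 and 0.22 ± 0.07 FPKM with PBS, so that they passed the level filter through the treated groups and their calls are a description. Stc1 was at 1.08 ± 0.39 FPKM with DMOG and 1.17 ± 0.33 FPKM with roxadustat, and Stc2 at 0.68 ± 0.46 and 0.91 ± 0.20 FPKM. Adamts1, a metalloprotease gene, rose by 0.42 ± 0.09 with DMOG on the log2 scale (limma adjusted p = 0.00503). Pappa itself was at 0.06 ± 0.02 FPKM with PBS and was not tested.

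Of 12 other ligands, receptors and binding proteins, 7 were tested with DMOG, and 1 was higher and 3 lower (median -0.16). Igf2as, the antisense RNA of Igf2, fell from 2.49 ± 0.32 to 1.27 ± 0.39 FPKM (log2 fold change -0.77 ± 0.12, limma adjusted p = 0.000982). The library kit keeps strand, but whether the counting used it is not given in the sources used here, so reads of Igf2as and Igf2 may not be told apart. Insr, the insulin receptor gene, fell by 0.40 ± 0.12, the mRNA-binding protein genes Igf2bp3 fell by 0.39 ± 0.09 and Igf2bp2 rose by 0.35 ± 0.11. The call of Insr was lost without PBS replicate 2, 3 or 6 or DMOG replicate 3 or 4 (limma adjusted p = 0.0527 to 0.0771), and that of Igf2bp2 without PBS replicate 3, 4 or 6 or DMOG replicate 3, 4 or 6 (0.0567 to 0.0775) and with an equal total (0.148). None of the 7 was called with roxadustat (median -0.16), and 1 of 6 tested relatives with an IGFBP-like domain, Ctgf, a matrix-associated growth factor gene, was higher with DMOG (0.46 ± 0.12), and none with roxadustat. With 1 library left out, the DMOG counts ran from 2 to 5 for the growth hormone axis, 4 to 10 for signalling and 2 to 5 for the other ligands and receptors. The highest counts came without DMOG replicate 5, where the background also rose, from 2526 to 4486 genes called. These highest counts are therefore not read against the share of 20.0%. The lowest came without PBS replicate 6 or DMOG replicate 4 or 6 for signalling, and without PBS replicate 3 or 6 or DMOG replicate 3 or 4 for the other ligands and receptors.

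In the retina transcriptome the order of the genes was different. With PBS, libraries labelled liver ran from Igfbp7 (185 FPKM) through Igfbp2 (51.7 FPKM), Igfbp4 (27.9 FPKM), Igf2 (15.7 FPKM), Igfbp5 (12.3 FPKM), Igf1r (11.4 FPKM), Igf1 (9.75 FPKM) and Igfbp3 (3.78 FPKM) to Igfals (0.57 FPKM) and Igfbp1 (0.07 FPKM). Neighbours whose libraries overlapped were Igfbp7 with Igfbp2, Igf2 with Igfbp5, Igfbp5 with Igf1r, and Igf1r with Igf1. Igfbp1, at 0 in 3 of the 18 libraries and at most 0.27 FPKM, and Igfals were below the mean of 0.5 FPKM needed for a test. Igf1r stood at a higher level here than in the liver transcriptome, 8.33 to 13.9 FPKM against 1.57 to 1.99 FPKM with PBS, although the tables may have been scaled apart.

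**Figure D5:**
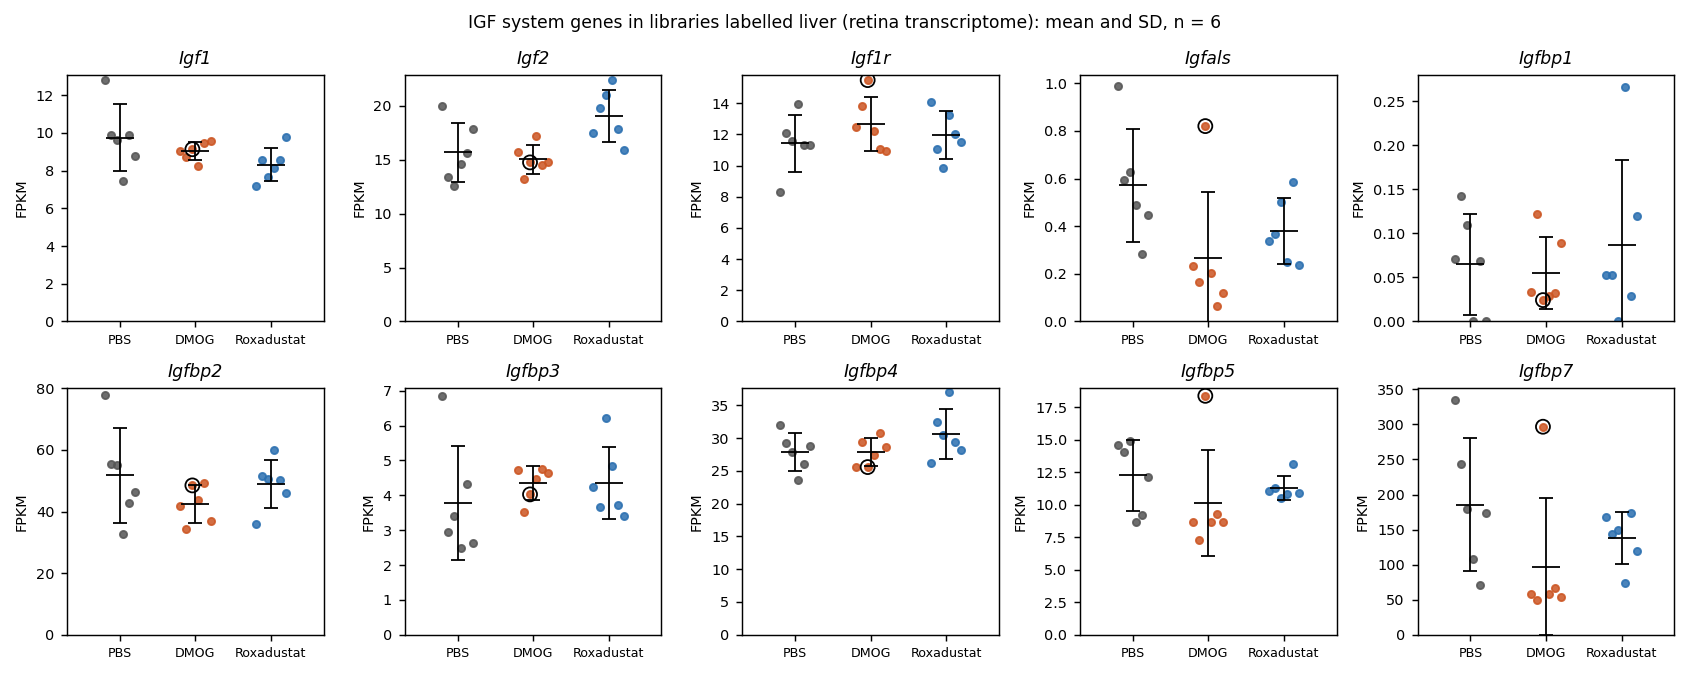
Levels of the 10 genes (FPKM, linear axes from 0) in the 6 libraries of each treatment labelled liver, which carry a retina transcriptome. Points are libraries, black lines the mean and SD, drawn down to 0 at most, and the ring marks DMOG replicate 3. That library is the highest of its group for Igfbp7, Igfbp5, Igfals and Igf1r.

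None of the 8 genes tested was called with either compound in the libraries labelled liver (retina transcriptome) by limma. With DMOG the background was 1.07% of 13779 genes (0.370% higher and 0.697% lower), with roxadustat it was 2.34% (1.69% and 0.653%), and between the compounds 1.31% (0.980% and 0.334%). At an unadjusted p under 0.05 there were 1, 2 and 1 of the 8 genes, against 1892, 2409 and 1503 of the 13779 in the same order. No gene of the 10 had treated and PBS libraries that did not overlap, against 1.16% of all genes with DMOG and 1.94% with roxadustat.

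Igfbp7, a binding protein of low IGF affinity found around blood vessels, was spread widely within the groups. Its lowest, median and highest levels were 71.3, 176 and 335 FPKM with PBS, 49.1, 58.0 and 297 FPKM with DMOG and 73.3, 147 and 173 FPKM with roxadustat. In the DMOG group 5 of 6 libraries lay below the lowest PBS library, and replicate 3 lay at 297 FPKM. The log2 fold change with DMOG was -1.13 ± 0.40 and was not called (limma adjusted p = 0.207), while without DMOG replicate 3 it was -1.52 ± 0.30 (limma adjusted p = 0.0113), with the other 5 libraries at 57.2 ± 6.53 FPKM. With roxadustat it was -0.31 ± 0.40 (limma adjusted p = 0.75).

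Lens markers were lower in the DMOG libraries as well, and they followed Igfbp7 in some libraries but not in others. The sum of 6 marker genes of retinal pigment epithelium and lens was 1388 to 14373 FPKM with PBS, 13.2 to 733 FPKM with DMOG and 151 to 7544 FPKM with roxadustat, with 5 of the 6 at a mean of at least 1 FPKM and none at 0 throughout. The lens gene Cryaa, which encodes a crystallin, was at 1011 to 10054 FPKM with PBS, 6.39 to 625 FPKM with DMOG and 111 to 5734 FPKM with roxadustat. Rpe65, a gene of the pigment epithelium, overlapped between the groups, at 1.82 to 14.1, 1.23 to 10.9 and 3.74 to 12.6 FPKM. DMOG replicate 3, whose Igfbp7 lay inside the PBS range, had Cryaa at 625 FPKM, the highest of the DMOG group but below every PBS library. Its Rpe65 was the lowest of the 18 libraries. Roxadustat replicate 4 was the lowest of its group for both Igfbp7 (73.3 FPKM) and Cryaa (111 FPKM). PBS replicate 3 had the lowest Cryaa of its group (1011 FPKM) with Igfbp7 at 179 FPKM. With roxadustat the median of the marker sum was 419 FPKM, against 5478 FPKM with PBS, and Igfbp7 was not called. The 8 endothelial markers summed to 46.0 to 58.6 FPKM with PBS and 47.0 to 56.6 FPKM with DMOG. The part of lens, pigment epithelium and endothelium in the Igfbp7 values was not tested.

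Igf2 and Igf1 were the genes with an unadjusted p under 0.05 for roxadustat in the retina transcriptome. Igf2 had a lowest, median and highest level of 12.6, 15.1 and 19.9 FPKM with PBS and 15.9, 18.8 and 22.4 FPKM with roxadustat. All 6 roxadustat libraries lay above the PBS mean, 2 above its range, and the log2 fold change of 0.28 ± 0.10 was not called (limma adjusted p = 0.146). Igf1 was at 7.46, 9.75 and 12.8 FPKM with PBS and 7.19, 8.36 and 9.79 FPKM with roxadustat, a log2 fold change of -0.21 ± 0.09 (limma adjusted p = 0.257), with DMOG between them at 9.04 ± 0.50 FPKM. Against DMOG, Igf2 was 0.33 ± 0.10 higher with roxadustat and was not called (limma adjusted p = 0.16).

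The remaining binding proteins and the receptor overlapped between all groups there. Igfbp3 was at 3.78 ± 1.64, 4.35 ± 0.48 and 4.35 ± 1.04 FPKM with PBS, DMOG and roxadustat, Igfbp2 at 51.7 ± 15.4, 42.4 ± 6.08 and 49.1 ± 7.78 FPKM, and Igfbp4 at 27.9 ± 2.90, 27.9 ± 2.09 and 30.6 ± 3.77 FPKM. Igfbp5 was at 12.3 ± 2.76, 10.2 ± 4.07 and 11.3 ± 0.93 FPKM, and Igf1r at 11.4 ± 1.82, 12.7 ± 1.74 and 12.0 ± 1.52 FPKM. Igfals, though not tested, was at 0.57 ± 0.24, 0.27 ± 0.28 and 0.38 ± 0.14 FPKM, with DMOG replicate 3 at 0.82 FPKM. Over the 18 libraries, the genes most like Igfbp3 by correlation were Kcnj8, a potassium channel gene of pericytes (Pearson r 0.83), Icam1, an adhesion molecule gene (0.82), Tmem178 (0.82), Lcat, a cholesterol-esterifying enzyme gene (0.81), and Pbx4 (0.79).

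Of the 5 pathway lists, 1 gene passed the test in the retina transcriptome in the comparisons with PBS. This was Stc2 with roxadustat, at 1.43 ± 0.38 FPKM against 0.68 ± 0.35 FPKM with PBS (log2 fold change 0.75 ± 0.19, limma adjusted p = 0.0457). Its call was lost in 6 of the 8 alternatives that tested it, among them the replicate block. At a mean of at least 5 FPKM it was not tested. The call was also lost with any one of 13 of the 18 libraries left out, those other than PBS replicates 1, 2 and 3, DMOG replicate 1 and roxadustat replicate 1. None of the 26 tested signalling genes and none of the 8 tested growth hormone axis genes was called with either compound.

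Whether a compound's response differed between the transcriptomes was tested directly over the 11101 genes that passed the filter in both tables. For DMOG, 2 of the 8 genes that could be tested were called, against a background of 15.9% (8.91% higher and 6.97% lower). Of the 1763 genes called, 56.1% were higher, against 76.8% of 2086 with an equal total. Igfbp3 had the higher response in the libraries labelled liver (0.25 ± 0.18 against -0.68 ± 0.25, a difference of 0.93 ± 0.32, limma adjusted p = 0.0416), and Igfbp7 the lower one (-1.13 ± 0.40 against 0.12 ± 0.08, a difference of -1.24 ± 0.43, limma adjusted p = 0.0435). For roxadustat, 1 of 8 was called, against 2.24% (1.03% higher and 1.22% lower; 45.8% of 249 called genes higher, or 57.7% of 239 with an equal total). This was Igfbp3 again, at 0.23 ± 0.18 against -0.97 ± 0.25, a difference of 1.21 ± 0.32 (limma adjusted p = 0.0342). The responses share their PBS libraries within each table. Igfbp1 and Igfals were below the level filter in the label liver and were not tested in this way. With no filter, Igfbp1 had the lower response there for both compounds (-1.59 with DMOG, limma adjusted p = 0.00281, and -1.64 with roxadustat, 0.00621), with its level in the label liver at most 0.27 FPKM.

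These 3 differences depended on single libraries. The DMOG difference of Igfbp3 lost its call (limma adjusted p = 0.0571 to 0.0873) without, in the label retina, PBS replicate 3, 4 or 6 or DMOG replicate 2, 3 or 4, and in the label liver, PBS replicate 2, 3, 4 or 6 or DMOG replicate 1, 4, 5 or 6. That of Igfbp7 did so (0.0519 to 0.0883) without, in the label retina, any PBS library but replicate 3 or any DMOG library but replicate 5, and in the label liver, PBS replicate 1, 2, 3 or 6 or any DMOG library but replicate 3. The roxadustat difference of Igfbp3 did so (0.0515 to 0.0714) without, in the label retina, PBS replicate 3, 4 or 6 or roxadustat replicate 1 or 3, and in the label liver, PBS replicate 2, 3, 4 or 6 or roxadustat replicate 3 or 4. Among the other alternatives, the DMOG difference of Igfbp3 lost its call with no filter (limma adjusted p = 0.0563) and with sex as a covariate (0.0519), and that of Igfbp7 with no filter (0.0592) and with only the groups compared (0.0896). Igfbp3 was below a mean of 5 FPKM in the label liver, so that alternative gave it no test.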

How the data were processed

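RNA of 36 libraries was extracted with RNeasy and prepared with a stranded TruSeq total RNA kit with Ribo-Zero Gold, per the labels' protocols. The deposited tables hold FPKM per gene and library, per the file headers, made on the build mm9, per the submitters' processing notes. These notes also list Cuffdiff 2.2.1, bcl2fastq 1.8.3 and TopHat2, the last as version 2. The scaling of libraries, annotation and strand setting are not given in the sources used here. Totals were 433021 to 540324 FPKM per library in the label retina and 542785 to 617853 in the label liver. The tables give no counts, so depth is unknown, no counting interval can be given, and precision rests on 6 libraries per group. No library pair was identical (correlations of log values 0.976 to 0.997). A row of totals was left out (1 row), and 25 genes carry dates as names.

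A gene was tested where its average over a table's 18 libraries reached 0.5 FPKM (12657 in the label retina, 13779 in the label liver). Values were fitted as log2(FPKM + 0.5) on 3 group means with limma 3.58.1 (R 4.3.3, empirical Bayes with trend), two-sided, with Benjamini-Hochberg adjustment over all genes at 0.05. A gene is called where it passes. The scale understates changes of low genes. Differences of response used all 36 libraries. Alternatives were pseudocounts of 0.1 and 1, no filter, a mean of at least 5 FPKM, equal total, median ratio, only the groups compared, a replicate block, sex as a covariate and each library left out. Scripts were tested on simulated data. Figures used Python 3.11.15 and matplotlib 3.10.9. Promoters came from RefSeq (GRCm38.p6). The 10 genes and the pathway and marker lists were chosen with earlier results of these data known. All 10 genes are named in every comparison, with up to 4 called genes of smallest adjusted p per pathway list and the 5 genes most correlated with Igfbp1 (label retina) and Igfbp3 (label liver). Ghr, Pappa, Cryaa and Rpe65, named beyond this rule, were chosen after their values were seen.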

Additional observations from a re-analysis of the deposited data

Results flagged for a closer look

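In 9 of 60 groups of 6 libraries (10 genes, 6 groups each), a single library stood apart from the others. Its gap to the nearest, as a part of the group's range, was past Dixon's 95% critical value. That value is passed by about 1 in 20 independent groups of normal values. The 10 genes were read from the same libraries, so the 60 groups are not independent and 9 is not set against that rate. In the libraries labelled retina (liver transcriptome), Igf1 was high in PBS replicate 6 (104 FPKM) and low in roxadustat replicate 3 (51.1 FPKM), and Igfbp1 was high in roxadustat replicate 4 (2346 FPKM). Igfbp4 was high in roxadustat replicate 1 (631 FPKM) and Igfbp5 in roxadustat replicate 2 (4.50 FPKM).

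In the libraries labelled liver (retina transcriptome), DMOG replicate 3 stood above its group for 3 genes, Igfbp7 (297 FPKM), Igfbp5 (18.4 FPKM) and Igfals (0.820 FPKM), and roxadustat replicate 5 was high for Igfbp5 (13.1 FPKM).

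The response differed between the transcriptomes by a test of the difference itself for Igfbp3 with DMOG (0.93 on the log2 scale, labelled liver minus labelled retina), for Igfbp7 with DMOG (-1.24) and for Igfbp3 with roxadustat (1.21). In that order the limma adjusted p was 0.0416, 0.0435 and 0.0342. With 1 library left out, the call was lost in 14, 19 and 11 of 36 fits.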

How the results depend on the processing

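Over the 9 alternatives and each library left out, Igfbp1 (both compounds) and Igfals with DMOG kept direction and call, and Igfals with roxadustat kept its call over the 9 alternatives but not over each library left out. Where a count or call changed, the cause was not tested, beyond fewer genes or libraries entering the fit. Depth is not known from these tables.

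Counts of all genes called, in the label retina: DMOG against PBS gave 2526, and 1655 at a mean of at least 5 FPKM (1808 to 4486 with 1 library left out, past 1.5-fold without DMOG replicate 5). Roxadustat against PBS gave 530, 325 at that mean and 1228 with only the groups compared (348 to 1107; past 1.5-fold without PBS replicate 3 or 6, DMOG replicate 5 or roxadustat replicate 1). Roxadustat against DMOG gave 379, 232 with no filter, 62 with only the groups compared and 78 with sex as a covariate (105 to 2048; past it without any DMOG library but replicate 2 or any roxadustat library). In the label liver: DMOG gave 147 and 97 with only the groups compared (48 to 420, past it without 11 of the 18 libraries, PBS replicate 4 giving the most), roxadustat 323 and 192 (209 to 482, past it without roxadustat replicate 2 or 3), and roxadustat against DMOG 181 (128 to 263). The DMOG response differed for 1763 genes, 976 at a mean of at least 5 FPKM (1386 to 3202, past it without DMOG replicate 5 labelled retina), and the roxadustat response for 249, 394 with no filter, 113 at a mean of at least 5 FPKM and 492 with only the groups compared (160 to 527, past it without that library or roxadustat replicate 2 labelled liver).

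Of the 10 genes, the number called with 1 library left out was 2 to 3 for DMOG and 1 to 4 for roxadustat in the label retina, 0 to 1 between the compounds there (1, Igfbp5, with sex as a covariate), and 0 to 1 for DMOG in the label liver. It was 0 to 2 for the DMOG response and 0 to 1 for the roxadustat response. Under the alternatives the DMOG response had 1 call each with no filter (Igfbp1, with both Igfbp3 and Igfbp7 lost at adjusted p 0.0563 and 0.0592), at a mean of at least 5 FPKM (Igfbp7), with only the groups compared (Igfbp3, with Igfbp7 lost at 0.0896) and with sex as a covariate (Igfbp7, with Igfbp3 lost at 0.0519). The roxadustat response had 2 with no filter (Igfbp1 and Igfbp3) and 0 at a mean of at least 5 FPKM, where Igfbp3 was not tested. The Igfbp1 calls with no filter restate its response in the label retina, as its level in the label liver was too low to move. Between the compounds in the label retina, the uncalled difference of Igfals turned to -0.00315 with sex as a covariate and ran from -0.11 to 0.21 with 1 library left out, and that of Igfbp1 from -0.12 to 0.26.

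The labels number the libraries 1 to 6 in each group. The deviations of same-numbered libraries correlated at -0.33 to 0.55, with at most 4 of 6 pairs over 0.1. With 6 pairs per comparison, these values cannot decide whether equal numbers share more than a name. With the replicate block, 2843, 539 and 396 genes were called in the label retina (DMOG, roxadustat, roxadustat against DMOG), 138, 340 and 175 in the label liver, and 2097 and 297 for the responses, and at most 3 of 6 libraries correlated best with their own number.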
